A study of Mus musculus with 4 samples.

Results

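The m6A machinery was examined through 10 of its genes in direct RNA nanopore reads from mouse embryonic stem cells: the writers Mettl3, Mettl14, Wtap and Zc3h13, the readers Ythdf1, Ythdf2, Ythdf3 and Ythdc1, and the erasers Alkbh5 and Fto. They were found by symbol in the deposited table, and 10 of 10 were present among 13831 symbols, with reads in each of the 4 libraries. Matched by symbol in a reference table of mouse gene names, their Ensembl gene identifiers are ENSMUSG00000022160.18 (Mettl3), ENSMUSG00000028114.16 (Mettl14), ENSMUSG00000060475.13 (Wtap) and ENSMUSG00000022000.11 (Zc3h13) for the writers. Those of the readers are ENSMUSG00000038848.14 (Ythdf1), ENSMUSG00000040025.17 (Ythdf2), ENSMUSG00000047213.14 (Ythdf3) and ENSMUSG00000035851.14 (Ythdc1), and those of the erasers ENSMUSG00000042650.3 (Alkbh5) and ENSMUSG00000055932.15 (Fto). The cells were J1 embryonic stem cells grown in serum with LIF, either wild type (WT) or Mov10 KO. There were 2 libraries of each genotype, called WT 1, WT 2, KO 1 and KO 2, with no treatment in either group. How the knockout was made, and whether it is a single clone, is not given in the sources used here. Nothing says that the libraries of a genotype came from separate cultures, so the p-values measure only the spread between these libraries, which may be technical.

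m6A is a methyl group placed on internal adenosines of messenger RNA while the RNA is in the nucleus. The writer complex has a catalytic core of Mettl3, which carries the methyltransferase activity, and Mettl14, which helps to bind the RNA; Wtap and Zc3h13 hold the complex in the nucleus and link it to its other subunits. Readers of the YTH family bind the modified base, Ythdc1 in the nucleus and the Ythdf proteins in the cytoplasm, where Ythdf2 recruits the deadenylase complex that shortens poly(A) tails. Alkbh5 and Fto are demethylases. In embryonic stem cells the mark is known for limiting the lifetime of pluripotency transcripts, and Mov10 is an RNA helicase.

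The libraries held from 351133 to 683239 reads with a tail length above 0, and 788 of them, 0.0414% of all reads, belonged to the members. Mov10, the targeted gene, had 26 and 14 reads in WT 1 and WT 2 and 0 and 1 in KO 1 and KO 2. The 8 pluripotent stem cell markers were all read, at a summed level of 9098 and 9350 reads per 1000000 reads (RPM) in WT and 7981 and 6751 RPM in KO. Both KO libraries were lower, and the part of this in the other results was not tested. Of 7 feeder fibroblast markers 6 had 0 reads in all libraries, Col1a1 and Col1a2 among them, and the summed level of the list was 5.70 to 14.0 RPM.

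The first question was how abundant each gene was. Each direct RNA read is a single molecule that enters the pore from its tail end, so levels are given in RPM and were not divided by transcript length. Intervals are exact 95% binomial intervals, which cover counting error only. Among the members Ythdf1 and Wtap were the most abundant and Zc3h13 the least, with the catalytic pair Mettl3 and Mettl14 near the bottom.

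Mettl3, the catalytic writer, had 10 and 8 reads in WT 1 and WT 2 and 16 and 9 in KO 1 and KO 2, which is 22.8, 22.8, 23.4 and 20.9 RPM. These 4 levels lay close together, and their intervals were wide, for example 10.9 to 41.8 RPM in WT 1. Mettl14, its partner, had 8, 7, 10 and 8 reads in the same order, or 18.2, 19.9, 14.6 and 18.6 RPM. Mettl3 had more reads than Mettl14 in 4 of 4 libraries, at a ratio of 1.30 over all reads (interval 0.809 to 2.12), so an equal number of molecules lies within the counting error.

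Wtap, the subunit that brings the core to nuclear speckles, had 40 and 32 reads in the WT libraries and 47 and 34 in the KO libraries. Its levels were 91.0 and 91.1 RPM in WT and 68.8 and 79.1 RPM in KO, so both KO libraries lay below both WT libraries. There were 3.56 Wtap reads for each Mettl3 read (interval 2.52 to 5.11) and 4.64 for each Mettl14 read (3.17 to 6.98), and the excess was present in each library. Zc3h13, the zinc finger subunit, had only 4 reads in WT 1, WT 2 and KO 1 and 10 in KO 2, or 9.10, 11.4, 5.85 and 23.3 RPM. KO 2 alone was high for Zc3h13.

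Ythdf1, a cytoplasmic reader described as promoting translation, had 30 and 47 reads in WT and 48 and 46 in KO. The levels were 68.3 and 134 RPM in WT and 70.3 and 107 RPM in KO. WT 2 and KO 2 were high and WT 1 and KO 1 low, so the libraries of a genotype differed more from each other than the genotypes did. Ythdf2, the reader linked to deadenylation and decay, had 34.1, 39.9, 36.6 and 39.5 RPM in WT 1, WT 2, KO 1 and KO 2, from 14 to 25 reads. Ythdf3, the remaining cytoplasmic paralog, had 38.7, 48.4, 42.4 and 53.5 RPM, from 17 to 29 reads. Over all reads Ythdf1 had 2.41 reads for each Ythdf2 read (interval 1.82 to 3.22) and 1.99 for each Ythdf3 read (1.53 to 2.61). Between Ythdf3 and Ythdf2 the ratio was 1.21 (0.874 to 1.68), within counting error of equal numbers. The nuclear reader Ythdc1 had 16, 23, 37 and 22 reads, or 36.4, 65.5, 54.2 and 51.2 RPM, with WT 1 the lowest and WT 2 the highest.

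Of the erasers, Alkbh5 had 14 and 13 reads in WT and 21 and 30 in KO. Its levels were 31.9, 37.0, 30.7 and 69.8 RPM, with KO 2 standing above the other libraries. Fto had 7 reads in WT 1 and a single read in WT 2, against 14 and 11 in KO 1 and KO 2. This is 15.9, 2.85, 20.5 and 25.6 RPM, and the interval of WT 1, 6.40 to 32.8 RPM, covers both KO levels. Over all reads there were 2.36 Alkbh5 reads for each Fto read (interval 1.55 to 3.67).

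**Figure D1:**
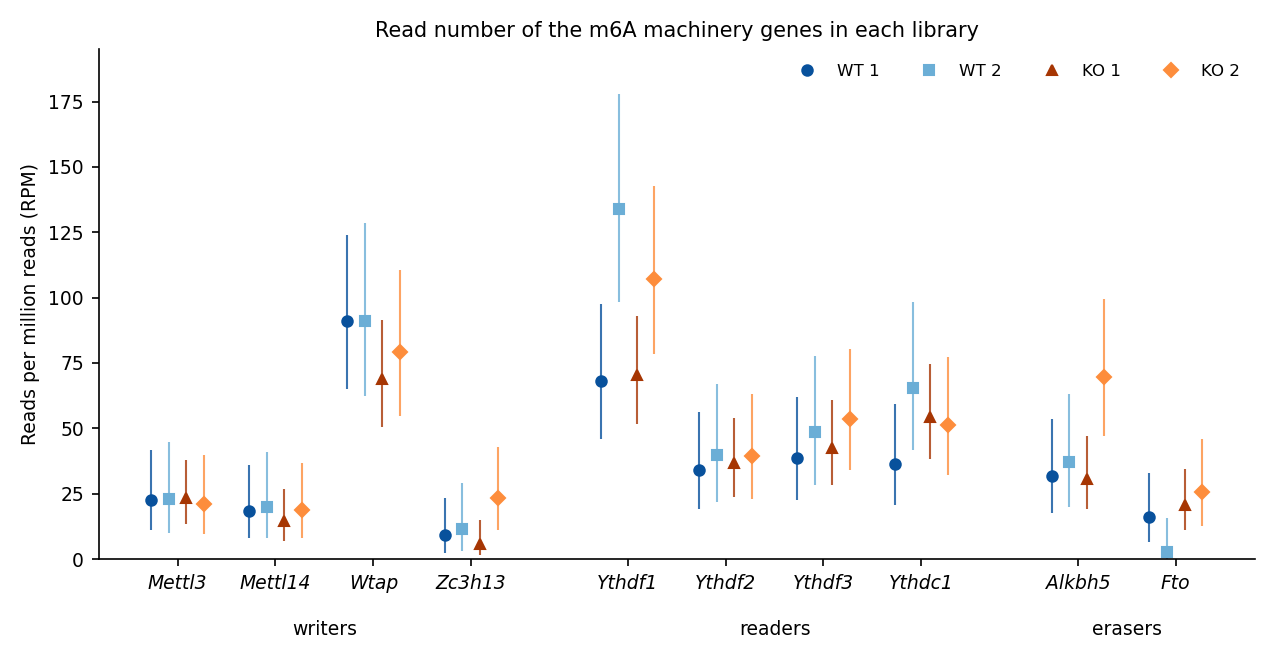
Read number of the 10 genes in RPM (y axis), grouped as writers, readers and erasers (x axis). Each marker is 1 library (circle WT 1, square WT 2, triangle KO 1, diamond KO 2) and bars are exact 95% binomial intervals; Ythdf1 and Wtap lie highest, and Mettl3 lies between 20.9 and 23.4 RPM in all 4 libraries.

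By mean level over the 4 libraries the order was Ythdf1 at 94.8 RPM ± 31.5 (SD, n = 4), Wtap at 82.5 ± 10.7, Ythdc1 at 51.8 ± 12.0, Ythdf3 at 45.8 ± 6.53 and Alkbh5 at 42.3 ± 18.5. Below them came Ythdf2 at 37.5 RPM ± 2.71 (SD, n = 4), Mettl3 at 22.5 ± 1.07, Mettl14 at 17.8 ± 2.26, Fto at 16.2 ± 9.74 and Zc3h13 at 12.4 ± 7.58. Of the 9 neighbouring pairs in this order, 3 kept their order in 4 of 4 libraries: Wtap over Ythdc1, Ythdf2 over Mettl3, and Mettl3 over Mettl14. For each of these an exact two-sided permutation test (n = 4 libraries) gave the smallest p it allows, with a Benjamini-Hochberg adjusted p of 0.375 over the 9 pairs, so this test cannot pass 0.05 with 4 libraries. The other 6 pairs did not differ beyond their spread, and Alkbh5, placed above Ythdf2 by its mean, was higher in only 1 of 4 libraries. Among all 45 pairs, 35 had the same order in every library. Ythdf1 stood at the 89.9th percentile of all 13831 symbols by mean level and Zc3h13 at the 54.0th.

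In summed reads the 4 writers had 141, 145, 113 and 142 RPM in WT 1, WT 2, KO 1 and KO 2. The 4 readers had 177.5, 288, 203 and 251 RPM, and the 2 erasers 47.8, 39.9, 51.2 and 95.3 RPM. Writers made up 29.0 to 38.5% of the members' reads, readers 48.4 to 60.8% and erasers 8.43 to 19.5%. The eraser sum was higher in both KO libraries than in both WT libraries, as was the RPM of 25.2% of single genes tested. The nearest libraries, WT 1 and KO 1, had overlapping intervals of 29.6 to 73.0 and 35.7 to 71.2 RPM, and KO 2 was high through Alkbh5. The sums of the writers and of the readers overlapped between genotypes.

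Read number was then compared between KO and WT with limma's voom over 4815 genes, those averaging 10 reads or more. None of the members passed, and neither did any other gene: 0% of genes were called higher and 0% lower at a Benjamini-Hochberg adjusted p of 0.05, while 498 genes, none of them a member, had an unadjusted p under 0.05. Mettl14, Fto and Zc3h13 had too few reads, so 7 of 10 members were tested. Of these 5 had negative and 2 positive log2 changes, with a median of -0.09, beside a median of -0.01 over all genes tested. The lowest adjusted p among them was 0.665, for Wtap.

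Wtap had 91.1 RPM ± 0.0907 (SD, n = 2) in WT and 73.9 ± 7.27 in KO. Its log2 change was -0.43 with a 95% interval from -1.10 to 0.24 (limma, adjusted p = 0.665). It was the only tested member whose RPM did not overlap between genotypes; this held, with lower values in KO, for 15.5% of all genes tested and with higher values in KO for 25.2%. Ythdf1 had a log2 change of -0.27 (interval -1.001 to 0.45) and Mettl3 one of -0.16 (-1.23 to 0.92). Ythdf2 had -0.09 (-0.92 to 0.74), Ythdf3 -0.01 (-0.80 to 0.79) and Ythdc1 0.00 (-0.79 to 0.79). Alkbh5 had 0.22 (-0.71 to 1.15), and without KO 2 it was -0.26. For 5 of the 7 members the interval extends past a 1.5-fold change in both directions, and for Wtap and Ythdf1 past a 1.5-fold fall only. In these bulk samples fewer cells that express a gene and less RNA per cell cannot be told apart.

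Fto was not in this test. Its RPM did not overlap between genotypes, at 9.39 RPM ± 9.25 (SD, n = 2) in WT and 23.0 ± 3.60 in KO, and WT 2 had its single read. With no filter on low read numbers, where 96 genes passed over 13831 symbols, Fto had a log2 change of 1.31 and did not pass (limma, adjusted p = 0.543). Without WT 2 the change was 0.25.

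The second measure was the poly(A) tail, whose length in nucleotides (nt) was estimated on each read. Over all reads of a library the median was 97.3 and 105.6 nt in WT and 105.8 and 98.1 nt in KO. Most members had tails in the range of other genes. Ythdc1 was the exception: its transcripts carried some of the longest tails in these cells, followed among the members by those of Wtap. Both were singled out after the values were seen.

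Ythdc1 had a median tail of 158 and 206 nt in WT and 161 and 138 nt in KO. The exact 95% intervals of these medians were 81.9 to 209, 133 to 250, 139 to 187 and 92.9 to 194 nt. All 4 values lay above the library medians, and in each library Ythdc1 was past the 91st percentile of the 5106 genes with at least 5 reads in every library, from 91.5 in KO 2 to 99.6 in WT 2. By its mean of 166 nt ± 28.8 (SD, n = 4) only 47 of these genes were longer, and 9 of the 3344 genes with at least 10 reads in every library.

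The same reads can be given by their share of long tails, which restates the medians and is no separate support. Tails of 150 nt or more were found on 9 of 16 Ythdc1 reads in WT 1, 16 of 23 in WT 2, 23 of 37 in KO 1 and 9 of 22 in KO 2. These shares were 56.3, 69.6, 62.2 and 40.9%, against 18.8, 24.0, 23.7 and 19.6% of all reads of the same libraries. The lower ends of the exact 95% binomial intervals for Ythdc1 were 29.9, 47.1, 44.8 and 20.7%, so each lay above the share of its library. Only 1 of its 98 reads had a tail under 30 nt.

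Wtap had medians of 154 and 135 nt in WT and 128 and 121 nt in KO, between the 73.3rd and the 93.7th percentile of genes in the libraries. Tails of 150 nt or more made up 52.5, 37.5, 48.9 and 35.3% of its reads in WT 1, WT 2, KO 1 and KO 2, above the library shares. The lower ends of the exact binomial intervals were 36.1, 21.1, 34.1 and 19.7% in the same order. In WT 2 the lower end was below the library share of 24.0%, and in KO 2 it was close to the share of 19.6%. The excess of Wtap was thus less clear than that of Ythdc1. The other 8 members together had such tails on 22.9, 37.8, 28.1 and 15.6% of reads, above the library share in WT 1, WT 2 and KO 1 and below it in KO 2. Over all libraries 21 of the members' reads, 2.66%, had a tail under 30 nt, against 2.28% of all reads.

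**Figure D2:**
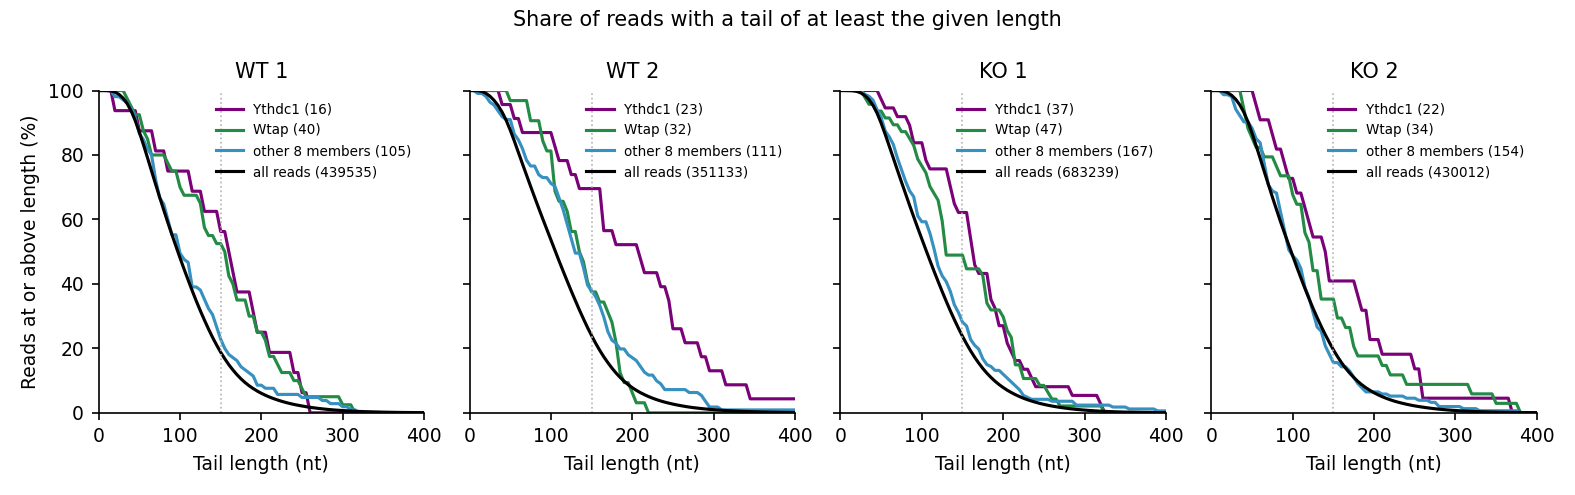
Share of reads (y axis, %) whose tail is at least as long as the length on the x axis (nt), in 1 panel per library; numbers of reads are in brackets and the dotted line marks 150 nt. The Ythdc1 curve lies above that of all reads at 150 nt in all 4 panels, at 40.9 to 69.6% against 18.8 to 24.0%.

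Mettl3 tails had medians of 97.9 and 119 nt in WT and 111 and 115 nt in KO, close to those of all genes. For Mettl14 the medians were 88.2, 119, 139 and 62.4 nt on 7 to 10 reads, with the KO libraries far apart. Zc3h13 had 87.1, 103, 193 and 83.2 nt, where the value of KO 1 rests on 4 reads.

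Ythdf1 had medians of 99.6 and 139 nt in WT and 109 and 92.5 nt in KO. Ythdf2 had 110 and 130 nt in WT and 96.2 and 90.0 nt in KO, so its KO medians lay below its WT medians. For Ythdf3 the values were 113 and 162 nt in WT and 115 and 93.0 nt in KO. WT 2 had the longest median of the 4 libraries for each of the 4 readers. Its gap to WT 1 was 19.6 nt for Ythdf2 and 39.7 to 49.5 nt for Ythdf1, Ythdc1 and Ythdf3, while over all reads WT 2 exceeded WT 1 by the difference between 105.6 and 97.3 nt.

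The eraser Alkbh5 had medians of 73.8 and 109 nt in WT and 116 and 115 nt in KO. Both KO values were higher than both WT values, and WT 1 was low, at the 4.50th percentile of genes in that library. Fto had 114, 50.7, 135 and 124 nt, where WT 2 is the single read.

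**Figure D3:**
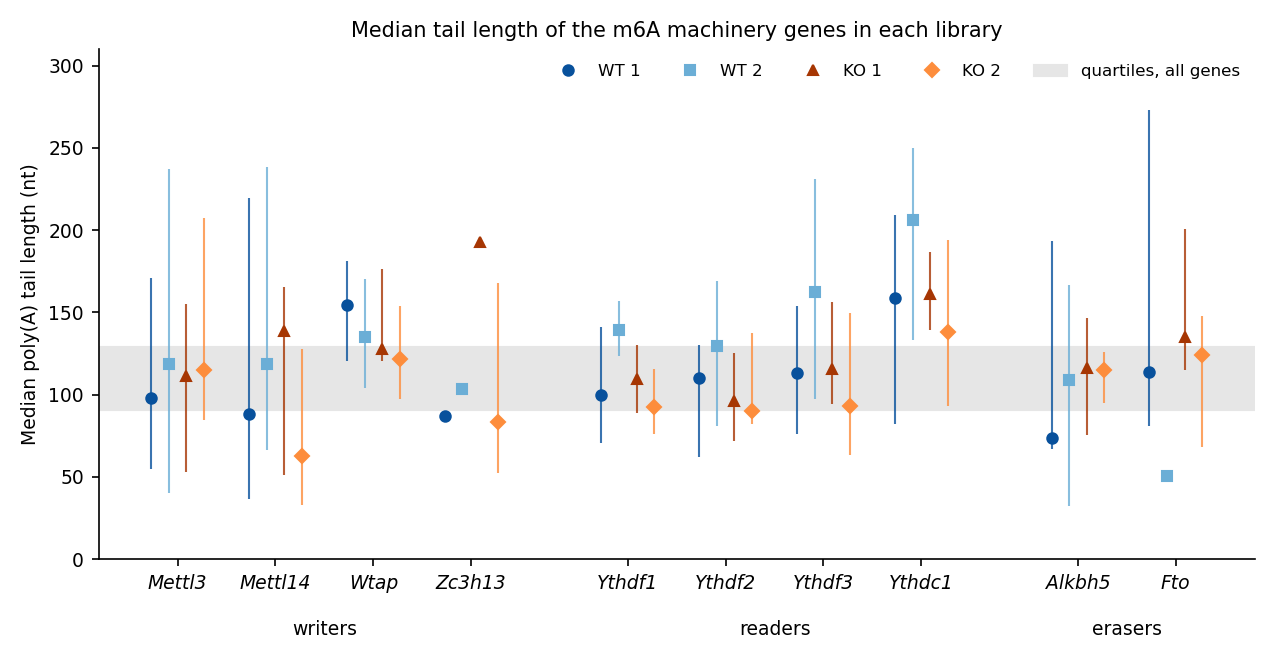
Median tail length in nt (y axis) of the 10 genes (x axis) in each library, with exact 95% intervals where a library had at least 6 reads. The grey band spans the quartiles of the gene medians over the 5106 genes with at least 5 reads in every library (lowest lower quartile to highest upper quartile of the 4 libraries); all Ythdc1 markers lie above it, from 138 to 206 nt.

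Of the members, 8 had at least 5 reads in each library and were ordered by mean tail length over the 4 libraries. After Ythdc1 came Wtap at 135 nt ± 14.3 (SD, n = 4), Ythdf3 at 121 ± 29.4, Mettl3 at 111 ± 9.02 and Ythdf1 at 110 ± 20.6. Ythdf2 had 107 nt ± 17.7 (SD, n = 4), Alkbh5 103 ± 20.04 and Mettl14 102 ± 33.6. Of the 7 neighbouring pairs only Ythdc1 and Wtap kept their order in 4 of 4 libraries, with a mean log2 difference of 0.29 ± 0.24 (SD). The exact two-sided permutation test (n = 4) gave the smallest p it allows, with a Benjamini-Hochberg adjusted p of 0.875 over the 7 pairs. The other 6 pairs did not differ beyond their spread, and Alkbh5, placed above Mettl14 by its mean, was longer in only 1 of 4 libraries. Over all 28 pairs, 12 kept their order in each library.

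Tail length was compared between genotypes with limma on log2 of the median over 1935 genes, each with 20 reads or more in every library. No member passed: 0% of genes were called longer and 0% shorter in KO at a Benjamini-Hochberg adjusted p of 0.05, and 45 genes, none of them a member, had an unadjusted p under 0.05. Only Wtap and Ythdf1 had enough reads. Wtap had 145 nt ± 13.6 (SD, n = 2) in WT and 125 ± 4.69 in KO, and the log2 change was -0.21 (95% interval -0.61 to 0.19; limma, adjusted p = 0.9998). With the arithmetic mean in place of the median the change of Wtap was 0.021, so its direction depends on the summary. Ythdf1 had 119 nt ± 28.1 (SD, n = 2) in WT and 101 ± 12.0 in KO, a log2 change of -0.23 (interval -0.61 to 0.15; limma, adjusted p = 0.9998). Without WT 2 the change of Ythdf1 was 0.015.

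With a minimum of 5 reads a library, the same fit held 5106 genes and 8 members, and again no gene passed (limma, adjusted p = 0.99996 for each of these members). The log2 changes of the 4 readers were all negative, at -0.23 for Ythdf1, -0.36 for Ythdf2, -0.39 for Ythdf3 and -0.28 for Ythdc1, where 51.0% of all genes had a negative change. Their intervals all included 0, for example -0.90 to 0.13 for Ythdf3. Without WT 2 the values for Ythdf3 and Ythdc1 were -0.13 and -0.09, and that for Ythdf2 was -0.24. That for Ythdf1 was then 0.015, so the 4 readers no longer shared a sign. The size also depended on the summary: with the mean of log2 length the values were -0.17 for Ythdf1, -0.13 for Ythdf2, -0.12 for Ythdf3 and -0.048 for Ythdc1. With the arithmetic mean they were -0.20, -0.074, -0.079 and -0.13 in the same order. Mettl14 had -0.14 and Mettl3 0.07, and Alkbh5 had 0.37 (interval -0.17 to 0.90). For Alkbh5 the arithmetic mean gave 0.0045, and leaving out WT 1 gave 0.086. Over the 8 members the median was -0.22, beside 0.00 over all 5106 genes. Median tails did not overlap between genotypes for Wtap and Ythdf2 (shorter in KO) and Alkbh5 (longer in KO), against 15% of genes shorter and 14.8% longer.

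**Figure D4:**
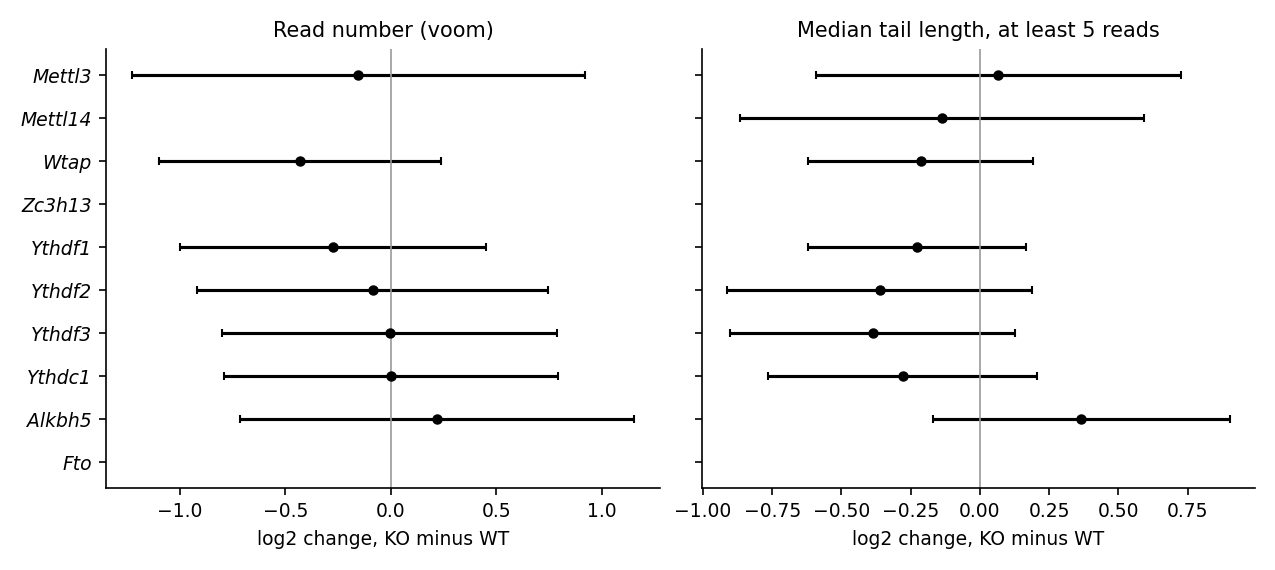
Log2 change from WT to KO (x axis) in read number (left) and in median tail length with at least 5 reads in each library (right), with 95% intervals from limma; genes without a marker had too few reads. All intervals include 0.

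Reads of the members fell on 25 annotated transcripts, and none of these carried another gene's symbol. Whether any of these reads also aligned to another gene was not examined. Alkbh5, Fto and Ythdf2 were each read on a single transcript. Ythdf1 had 95.9% of its reads on 1 transcript and Mettl3 95.3%. Mettl14 had 11 reads on each of 3 transcripts over all libraries, but not within them: ENSMUST00000029759.15 took 62.5 and 42.9% of its reads in WT and 30 and 0% in KO. ENSMUST00000090371.13 took 12.5 and 28.6% in WT and 30 and 62.5% in KO, on 7 to 10 reads a library. The exact 95% intervals of the libraries furthest apart, WT 1 and KO 2, overlapped for both transcripts. They were 24.5 to 91.5% and 0 to 36.9% for the first, and 0.316 to 52.7% and 24.5 to 91.5% for the second. How often shares fail to overlap over all transcripts was not counted, so no change in transcript use is read from this.

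Wtap and Ythdc1, the genes with the longest tails, were divided over 4 and 6 transcripts. The main Wtap transcript, ENSMUST00000159986.7, took 65.0 and 37.5% of its reads in WT and 42.6 and 29.4% in KO. WT 1 was the highest, and the shares of this transcript overlapped between genotypes, as did those of ENSMUST00000160781.7. ENSMUST00000007007.13 took 5 and 12.5% in WT and 17.0 and 20.6% in KO. ENSMUST00000159551.7 took 5 and 9.38% in WT and 17.0 and 11.8% in KO. Both shares were thus higher in KO, on 2 to 8 reads a library, but the exact intervals of the libraries furthest apart overlapped. For ENSMUST00000007007.13 they were 0.611 to 16.9% in WT 1 and 8.70 to 37.9% in KO 2. For ENSMUST00000159551.7 they were 0.611 to 16.9% in WT 1 and 7.65 to 30.8% in KO 1. Transcript shares were not tested. How often they fail to overlap over all transcripts was not counted, so no change in transcript use is read from these shares. The pooled median tail of ENSMUST00000159986.7 was 126 nt (68 reads), and the 3 other Wtap transcripts had 135, 156 and 174 nt on 47, 17 and 21 reads. For Ythdc1 the 3 transcripts with the most reads had pooled medians of 160 nt (37 reads), 176 nt (26 reads) and 148 nt (24 reads), so the long tails were not limited to a single transcript. Zc3h13 had 12 reads on a transcript with a median of 72.8 nt and 10 on a transcript with 154 nt. Pooled medians mix the libraries and are given as a description.

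**Figure D5:**
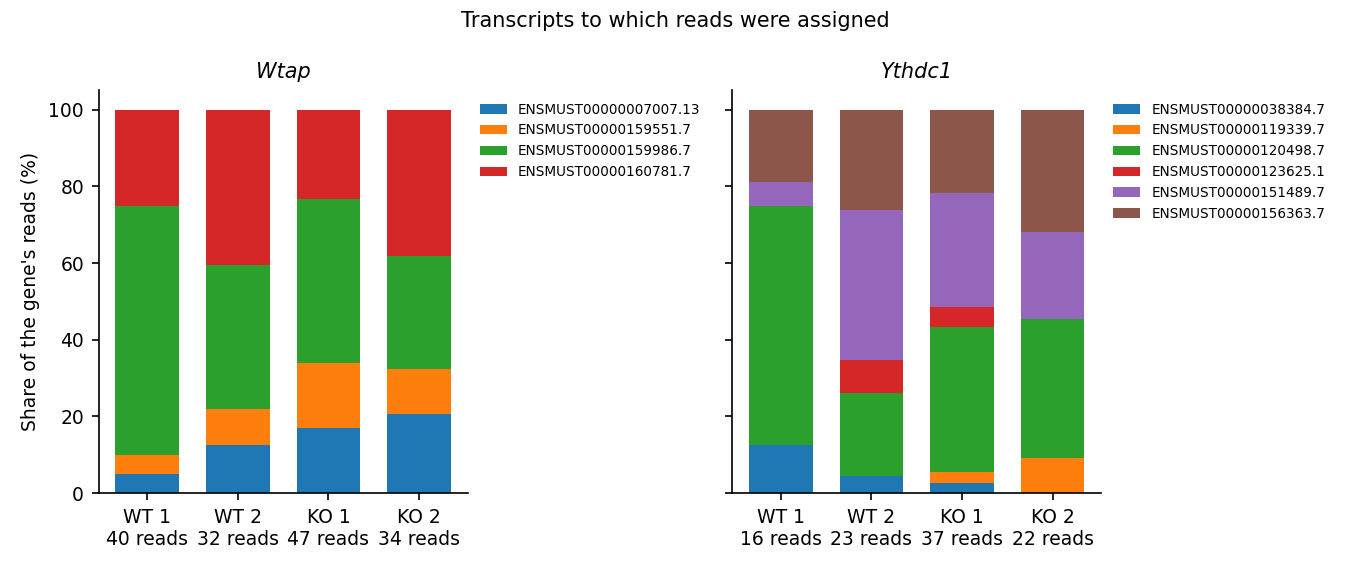
Share of the reads of Wtap (left) and Ythdc1 (right) assigned to each annotated transcript (y axis, %) in each library (x axis, with read numbers). ENSMUST00000159986.7 takes 29.4 to 65.0% of Wtap reads, and Ythdc1 reads are spread over 6 transcripts.

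The deposited table also carries the authors' classes of genes, which divide Mov10 targets by whether they carry m6A and set non-targets apart. How these were defined is not stated. Zc3h13, Ythdf1, Ythdf2, Alkbh5 and Fto were in the class of targets with m6A, Ythdf3 in that of targets without m6A, Mettl3 and Mettl14 were non-targets, and Wtap and Ythdc1 were in no class. Targets with m6A thus made up 5 of 10 members, beside 14.9% of all 13831 symbols and 18.8% of the 4815 genes tested for read number. Among the 23 other genes of the pathway, described below, they made up 8, or 34.8%. Both erasers were in the class of targets with m6A, and neither gene of the catalytic core was.

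The other genes of the pathway were taken from 5 lists with 23 genes in all. Among those with under 20 reads in some library, these are named here after their values were seen: Virma, Rbm15b, Rbm15, Cbll1, Mettl16, Mettl5, Igf2bp1, Igf2bp2, Igf2bp3, Cnot7 and Fmr1. The others of that kind, Zcchc4, Pcif1, Ythdc2, Prrc2a and Ahcy, are given in the counts only. In read number 18 of them were tested and 0 passed in either direction (limma, lowest adjusted p = 0.204), with a median log2 change of 0.04, and 3 had an unadjusted p under 0.05. Among the accessory subunits of the writer complex, the scaffold Virma had 10, 16, 22 and 18 reads in WT 1, WT 2, KO 1 and KO 2, with a log2 change of 0.06. Rbm15b, which guides the complex to its targets, had 11, 7, 17 and 8 reads and a change of -0.15. Rbm15 and Cbll1 had too few reads to be tested.

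Other methyltransferases went different ways in value. Mettl16, which methylates the Mat2a transcript, had 13.7 and 28.5 RPM in WT and 35.1 and 62.8 RPM in KO, a log2 change of 1.05 (limma, adjusted p = 0.528). Mettl5, an enzyme for ribosomal RNA, had 100.1 and 76.9 RPM in WT and 55.6 and 37.2 RPM in KO, a change of -1.02 (limma, adjusted p = 0.322). Over the alternatives, some of which leave a genotype with 1 library, the log2 change of Mettl5 went from -1.33 to -0.73. Mettl5 passed only in the fit without WT 2, which has 1 WT library, with a log2 change of -1.28. Trmt112, the partner that stabilises Mettl5, had 146 and 197 RPM in WT and 203 and 240 RPM in KO, a change of 0.26. Mat2a, which makes the methyl donor S-adenosylmethionine, had a change of 0.33 (limma, adjusted p = 0.781).

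The Igf2bp proteins, described as readers that stabilise transcripts, showed the widest values. Igf2bp1 had 18 and 30 reads in WT and 92 and 66 in KO, or 41.0, 85.4, 135 and 153 RPM. Both KO libraries were higher, with a log2 change of 1.15 (interval 0.43 to 1.88; limma, adjusted p = 0.204). Over the alternatives its adjusted p went from 0.00577 without WT 2, where 451 of 5086 genes passed, to 0.994 without KO 2. Each fit that leaves out a library has a genotype with 1 library, which is assumed to vary like the pair of the other genotype. Igf2bp3 had 4 and 7 reads in WT and 0 in both KO libraries. With each KO library set at a floor of 3 counts (5.68 RPM on average), the WT mean of 14.5 RPM was 2.55-fold that floor. This ratio leaves out the counting error of WT, so it is not a lower bound. The exact binomial interval of WT 1, 2.48 to 23.3 RPM, overlapped those of KO 1 and KO 2, which ended at 5.40 and 8.58 RPM. That of WT 2, 8.02 to 41.1 RPM, overlapped only that of KO 2. For the main test Igf2bp3 had too few reads. With no filter on low read numbers, where 96 of 13831 genes passed, it passed (limma, adjusted p = 0.00281). Igf2bp2 had 27.3 and 39.9 RPM in WT and 22.0 and 6.98 RPM in KO, a change of -1.20 (limma, adjusted p = 0.504). Hnrnpa2b1 and Hnrnpc, abundant nuclear proteins described as readers of m6A or of the structures it opens, had changes of 0.03 and -0.13.

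Of the deadenylase subunits on which Ythdf2 acts, the scaffold Cnot1 had a log2 change of -0.01 and the nuclease Cnot7 one of -0.21. The nuclease Cnot8 had 79.6 and 120 RPM in WT and 54.2 and 48.8 RPM in KO, a change of -1.01 (limma, adjusted p = 0.282). Over the alternatives its adjusted p went from 0.0489 without WT 1, where 93 of 4978 genes passed, to 0.999 without KO 1. In tail length 7 of the 23 genes were tested and 0 passed, with log2 changes from -0.11 for Hnrnpc to 0.08 for Mat2b. Fmr1, the fragile X RNA-binding protein, had a mean of library median tails of 158 nt ± 21.6 (SD, n = 4) on 7, 8, 20 and 19 reads.

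By level profile the genes most like Ythdf1, the member with the most reads, were Nol11, Dld and Rsl24d1. Their root-mean-square distances from it in centred log2 level over the 4 libraries were 0.02, 0.03 and 0.04. Of 4814 genes, 22 lay within 0.1. All 3 genes, like Ythdf1, were higher in WT 2 and KO 2 than in WT 1 and KO 1, so the shared profile does not follow genotype. Ythdf1 had 30 to 48 reads a library, with an interval of 46.1 to 97.4 RPM in WT 1, so its counting error is wide beside these distances. The likeness was not tested.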

How the data were processed

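Per the labels' protocols, polyadenylated RNA was selected on oligo(dT) beads, made into direct RNA libraries with barcode adapters and sequenced on a MinION. The submitters' processing notes name minimap2 2.20; the tail length tool, build and annotation are not given in the sources used here. The deposited table gives a tail length in nt, a transcript, a symbol and a library for each of 1903922 reads; 3 without a length above 0 were left out. Libraries were assigned by sample title. Counts of reads per symbol were made here, so they were tested with limma 3.58.1's voom (R 4.3.3; 0.5 reads added, median-of-ratios scaling, mean of at least 10 reads). Tail length was tested with limma (log2 of the median, trend on read number, at least 20 reads in each library). P-values were adjusted by Benjamini-Hochberg over all genes tested, with a threshold of 0.05. All 10 members are named; pathway genes come from lists, by rule those with at least 20 reads in each library, with exceptions named in the text. Members, lists and tests were chosen with earlier results of these data known. Gene symbols of 10 of 10 members matched a table of mouse gene IDs. Tables were handled with Python 3.11.15, pandas 2.3.3 and scipy 1.17.1.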

Additional observations from a re-analysis of the deposited data

How the results depend on the processing

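No member that could be tested passed under any alternative run, so the count of called members stayed 0 for tail length and for read number. The main tail fit held only Wtap and Ythdf1. With at least 50 reads in each library no member could be tested, as none had more than 48, so the count there was fixed at 0. In fits on all 4 libraries the lowest adjusted p of a member was 0.543 for read number (limma, Fto with no filter). For tail length it was 0.994 (limma, libraries centred). Over all genes, read number gave 0 calls, but 7 with scaling by total reads, 1 with upper-quartile scaling and 96 with no filter; leaving out a library gave 0 to 451, with 93 without WT 1 and 451 without WT 2; the lone library is then assumed to vary like the other genotype. Tail length gave 0 calls, 1 with at least 10 reads in each library and 0 to 2 with a library left out (2 without WT 2). With the replicate number as a block, read number gave 66 calls (30 higher, 36 lower) and tail length 0. Same-numbered libraries did not deviate together (correlation 0.0135 for tail length over 1935 genes, 0.0155 for read number over 4815), so the numbers are not taken to pair them. Scaling by total reads moved the median log2 change of all genes from -0.01 to 0.11.

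Several member changes changed sign, none of them called, and the cause was not tested; their main values ran from -0.27 (Ythdf1 read number) to 0.42 (Zc3h13 tail length). For read number, Ythdf2 was 0.031 with total reads scaling. Ythdf3 was 0.11 with total reads scaling, 0.044 with upper-quartile scaling, 0.0037 with no filter, 0.016 with a mean of at least 20 reads, 0.012 with limma-trend and 0.010 with the replicate block. Ythdc1 was -0.016 with limma-trend, -0.0090 with the replicate block and -0.018 on transcripts with a single symbol. With a library left out, Ythdf1 ranged from -0.69 to 0.10, Ythdf3 from -0.13 to 0.18, Ythdc1 from -0.34 to 0.32 and Alkbh5 from -0.26 to 0.88. For tail length, Wtap was 0.021 with the arithmetic mean, and Ythdf1 ranged from -0.47 to 0.015 with a library left out. Among members without enough reads for the main tail test, Mettl3 was -0.07 without WT 1, Mettl14 was 0.08 without WT 2 and 0.44 without KO 2, and Zc3h13 was -0.19 without KO 1. The number of neighbouring pairs with the same order in each library was 1 for tail length (1 to 2 with a library left out) and 3 for read number (2 to 5). Members had from 1 to 48 reads in a library, and each genotype had 2 libraries.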
